A study of Mus musculus with 8 samples.

Results

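The genes described here are 36 fetal liver genes in 3 classes, which are 24 secreted plasma proteins and apolipoproteins, 8 liver transcription factors and 4 intracellular proteins of hepatoblasts or simple epithelia. A gene probe belonged to the set where its RefSeq accession was a transcript of one of these genes. Of the 36 genes, 35 had a probe and Apob had none here, and with 2 probes for Ahsg the set held 36 of the 34967 gene probes on the array. Whole E11.5 mouse embryos, bred from carriers of an Ott1 allele of low expression, gave RNA for 1 one-colour CodeLink array each. Ott1, now named Rbm15, encodes an RNA-binding protein, and the series concerns its control of gene expression. There were 3 embryos homozygous for the low-expression allele (numbered 2, 7 and 16), 3 heterozygous (3, 10 and 15) and 2 wild type (11 and 13). The labels give no sex, no batch and no strain for any of them, and the label of the homozygous samples calls the allele a knockdown. No probe was matched to Rbm15, so the targeted gene could not be checked.

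The liver bud arises from foregut endoderm, and at mid-gestation its hepatoblasts already make the proteins of fetal plasma while blood cells mature around them. FOXA proteins open liver gene promoters, and HNF4A, C/EBPα, PROX1 and the ONECUT proteins act with HNF1 on genes such as Alb, Afp and Ttr. Many of these genes are not confined to liver. Yolk sac endoderm makes alpha-fetoprotein, transthyretin and apolipoproteins, the choroid plexus makes transthyretin, the floor plate and the lung and gut epithelium express Foxa1 and Foxa2, motor neurons express Onecut genes, and Krt8 and Krt18 mark simple epithelia in general. In whole embryos, fewer cells of a type and less RNA per cell cannot be told apart.

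Levels are log2 values of background-corrected, quantile normalized intensity, and a difference is homozygous minus the group named. Of the 35 genes with a probe, 31 were above background on every array of at least 1 genotype and were tested: 20 secreted, 7 factors and 4 intracellular. The 4 others, Apoa4 (apolipoprotein A-IV), Apoh (beta-2-glycoprotein I), F2 (prothrombin) and Hnf4a, were dim, and each was above background in at most 1 embryo. Across the tested genes, 25 were above background on all 8 arrays. Before normalization the median intensity was up to 84.5 on homozygous arrays, each of which was brighter than the 5 others (48.4 to 57.8), so brightness and homozygosity cannot be told apart. Embryo 16 stood apart, with correlations of 0.956 to 0.968 with other arrays, while pairs among the others reached 0.990. The mean of 4 Y-linked probes was 4.04 in homozygous embryo 16 and 4.15 and 3.92 in heterozygous embryos 3 and 15, against 7.48 to 7.80 in the 5 others.

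Promoter stretches are shown for 5 of the secreted genes with lower means in homozygous embryos (Alb, Afp, Apoa1, Serpina1b and Ahsg) and for Fgb and Vtn, with differences of at most 0.16, so that both kinds can be read side by side. Of the 36 genes, 33 had a promoter entry in RefSeq on GRCm38.p6, and Ttr had none. Each line holds the 150 bases just before the annotated start, 5′ to 3′ on the gene's strand. Capitals mark matches, on either strand, to the HNF1 word GTTAAT, the HNF4 words CAAAGTCCA and CAAAGTTCA, the FOXA words TGTTTAC and TGTTTGC, the C/EBP word TTGCNNAA and the TATA word TATAAA.
Alb: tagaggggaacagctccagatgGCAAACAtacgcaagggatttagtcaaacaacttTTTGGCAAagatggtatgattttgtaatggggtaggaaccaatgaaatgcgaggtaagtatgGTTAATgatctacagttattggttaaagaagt
Afp: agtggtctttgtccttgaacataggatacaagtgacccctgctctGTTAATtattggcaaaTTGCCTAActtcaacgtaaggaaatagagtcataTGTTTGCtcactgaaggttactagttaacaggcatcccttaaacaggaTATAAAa
Apoa1: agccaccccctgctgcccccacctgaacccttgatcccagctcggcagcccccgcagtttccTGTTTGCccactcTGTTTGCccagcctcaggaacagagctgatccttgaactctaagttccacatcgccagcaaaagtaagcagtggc
Serpina1b: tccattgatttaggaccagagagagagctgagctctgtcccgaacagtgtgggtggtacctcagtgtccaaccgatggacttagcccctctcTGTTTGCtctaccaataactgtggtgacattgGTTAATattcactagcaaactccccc
Ahsg: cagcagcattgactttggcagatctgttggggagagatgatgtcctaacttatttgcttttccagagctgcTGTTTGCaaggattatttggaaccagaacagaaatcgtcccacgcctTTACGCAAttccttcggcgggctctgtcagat
Fgb: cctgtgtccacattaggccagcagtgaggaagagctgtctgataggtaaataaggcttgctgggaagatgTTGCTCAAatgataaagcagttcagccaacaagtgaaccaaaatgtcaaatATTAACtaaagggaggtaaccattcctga
Vtn: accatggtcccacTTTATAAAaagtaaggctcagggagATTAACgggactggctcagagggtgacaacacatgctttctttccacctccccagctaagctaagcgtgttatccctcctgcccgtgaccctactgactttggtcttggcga
The Alb stretch lies at chr5:90460720-90460869 on the plus strand and that of its neighbour Afp at chr5:90490564-90490713, also on the plus strand. Those of Apoa1 (chr9:46228480-46228629), Ahsg (chr16:22891865-22892014) and Vtn (chr11:78498970-78499119) are on the plus strand, and those of Serpina1b (chr12:103738190-103738339) and Fgb (chr3:83049864-83050013) on the minus strand. Alb held an HNF1 word starting 32 bases before the start, a FOXA word at 128 and a C/EBP word at 94. In Afp the same 3 kinds began 105, 55 and 89 bases before the start. Apoa1 held 2 FOXA words, at 88 and 75 bases, and Ahsg held a FOXA word at 79 and a C/EBP word at 32. Fgb and Vtn held no FOXA word, and each held an HNF1 word, at 29 and 112 bases. The genes shown were picked with their differences known, and whether words go with differences was not tested. In Vtn the capitals run over 2 overlapping TATA words on opposite strands.

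The search was also run over the 250 bases before every annotated start, 32851 windows for 27025 genes. A member counted where any of its windows held a match, while the share over all is per window. The 2 shares therefore differ in unit, and a gene with several starts had more chances of a match. FOXA words were found in 8 of the 18 tested secreted genes with an entry, or 44.4%, against 7.29% of all 32851 windows. The C/EBP word was found in 10 of 18 (55.6%) against 9.56%, and the HNF1 word in 6 of 18 (33.3%) against 6.43%. No tested member of any class held an HNF4 word, which 0.715% of windows hold. Among the 6 tested factors with an entry, 2 held a FOXA word, 1 an HNF1 word and none the C/EBP word. These matches describe letters only.

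Most secreted proteins had lower means in homozygous than in the 5 other embryos, with the lowest differences for Alb, Ttr, Serpina1b and Afp, whereas the factors had differences of both signs. No member passed the test in any comparison. Homozygous against the 5 other embryos, limma with Benjamini-Hochberg adjustment called 0 of 31 members, beside 0.107% of all tested probes. At an unadjusted p under 0.05, 7 members were lower and 2 higher, against 13.4% and 6.63% of all probes. The 7 were above background on all 8 arrays. The 2, Onecut1 and Foxa3, were tested through the genotypes where they were high, so their direction is tied to how they were chosen. The plot of deviations by embryo shows most secreted genes high in heterozygous embryo 15 and in wild type embryos, and mixed in homozygous embryo 2. Median scaling of the arrays moved the median difference of all probes to -0.22, against -0.06 as reported, and single differences moved with it.

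**Figure D1:**
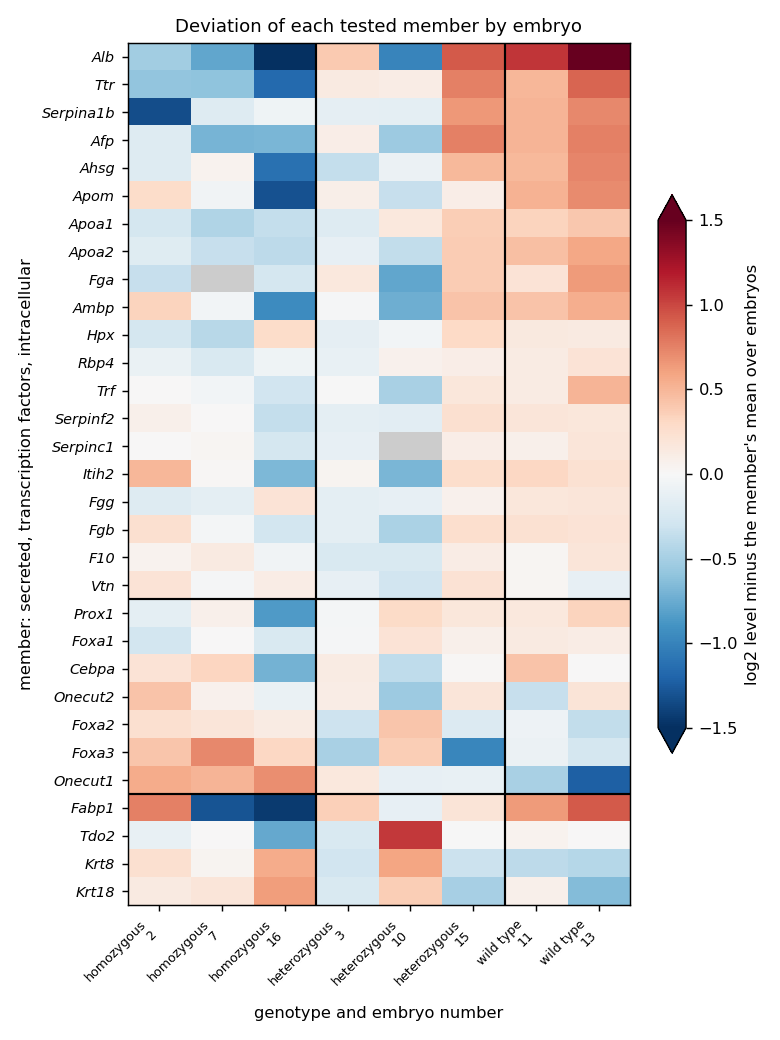
Each row is a tested member and each column an embryo, homozygous on the left, then heterozygous and wild type. Colour gives the log2 level minus the mean of that member in all embryos, blue for lower and red for higher, with values beyond 1.5 drawn at the end colour and grey for a spot left out. Alb shows the widest range of the secreted rows, 3.57 on the log2 scale.

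Albumin and alpha-fetoprotein are the main serum proteins of the adult and the fetus, encoded by neighbouring genes on chromosome 5. Alb had levels of 6.71, 6.45 and 5.40 in homozygous embryos 2, 7 and 16, against 7.61, 6.23 and 8.14 in heterozygous embryos 3, 10 and 15 and 8.30 and 8.96 in wild type embryos 11 and 13. Homozygous and wild type embryos did not overlap, but heterozygous embryo 10 was lower than embryos 2 and 7. The share of all probes without overlap between these 2 genotypes was not counted. The difference was -1.67 against the 5 others (SE 0.57, limma adjusted p = 0.186) and -2.45 against wild type alone (SE 0.59, adjusted p = 0.209), on the log2 scale. Without embryo 16 it was -1.30 against the others, and without embryo 10 it was -2.06. Afp was at 10.39, 9.88 and 9.90 in homozygous embryos, against 10.69, 10.03 and 11.34 in heterozygous and 11.10 and 11.33 in wild type embryos. Again heterozygous embryo 10 lay inside the homozygous range, and the difference was -0.84 against the others (SE 0.30, adjusted p = 0.194) and -1.16 against wild type (SE 0.35, adjusted p = 0.246).

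Transthyretin, which carries thyroxine and retinol-binding protein in plasma, had the lowest adjusted p of the members against the 5 other embryos. Ttr was at 9.24, 9.23 and 8.67 in homozygous embryos, against 9.97, 9.94 and 10.59 in heterozygous and 10.33 and 10.71 in wild type embryos. Every homozygous value lay below every other value, as in 9.51% of all tested probes with a value in every embryo. The log2 difference was -1.26 (SE 0.22, 2.4-fold lower, limma adjusted p = 0.0855) against the 5 others, -1.47 against wild type (adjusted p = 0.153) and -1.12 against heterozygous embryos (adjusted p = 0.332). Against the other embryos Ttr passed the threshold in 3 of 21 alternatives. These were the authors' scaled values (-1.54, limma adjusted p = 0.0483), normexp background correction (-1.18, 0.0297) and a trended robust prior (-1.26, 0.0328). In the authors' values the median of all probes was -0.25. Ttr did not pass with no filter (0.188) or with any embryo left out (0.058 to 0.259). Its partner Rbp4, the retinol carrier, differed by -0.21 (SE 0.10, adjusted p = 0.273), or -0.47 under median scaling.

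The high-density lipoprotein genes also had lower means. Apoa1, the main protein of that particle, was at 9.46, 9.27 and 9.37 in homozygous embryos, against 9.53, 9.88 and 10.09 in heterozygous and 10.06 and 10.13 in wild type embryos. The highest homozygous value lay below the lowest of the others, that of heterozygous embryo 3, and the difference was -0.57 (SE 0.15, adjusted p = 0.14). Of the 18 secreted genes tested with a value in every embryo, 2 (Ttr and Apoa1) had every homozygous value below every other value. For 0 of the 18 was every homozygous value above. Over all such probes these shares were 9.51% and 4.71%, so 2 of 18 lies close to the share of all probes. Apoa2, the companion of Apoa1, was at 8.65, 8.48 and 8.44 in homozygous embryos. Its levels were 8.72, 8.46 and 9.22 in heterozygous and 9.29 and 9.41 in wild type embryos. Embryo 10 lay within the homozygous range, and the difference was -0.49 (SE 0.22, adjusted p = 0.252), or -0.82 against wild type. Apom, a lipocalin of the same particle, was at 6.91, 6.58 and 5.33 in homozygous embryos, against 6.72, 6.29 and 6.73 in heterozygous and 7.15 and 7.34 in wild type embryos. Its difference of -0.58 (SE 0.37, adjusted p = 0.393) was -0.11 without embryo 16, which held the lowest value.

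Serpina1b, an alpha-1-antitrypsin gene, was at 7.90, 9.03 and 9.16 in homozygous embryos, against 9.09, 9.07 and 9.87 in heterozygous and 9.74 and 9.94 in wild type embryos. Embryo 2 was the lowest, and the difference of -0.85 (SE 0.33, adjusted p = 0.215) was -0.45 without it. Serpina1b lies among the near-identical genes Serpina1a, Serpina1c, Serpina1d and Serpina1e, so its probe may read more than 1 of them. Ahsg, or fetuin-A, an inhibitor of calcification, was at 5.54, 5.79 and 4.61 in homozygous embryos, against 5.38, 5.65 and 6.22 in heterozygous and 6.23 and 6.47 in wild type embryos. The groups overlapped and the difference was -0.67 (SE 0.32, adjusted p = 0.281), or -0.34 without embryo 16. The other Ahsg probe was dim on most arrays and was not tested. Ambp, the alpha-1-microglobulin and bikunin precursor, was at 7.83, 7.45 and 6.55 in homozygous embryos, against 7.47, 6.77 and 7.92 in heterozygous and 7.92 and 8.04 in wild type embryos. Its difference of -0.35 (SE 0.36) was 0.02 without embryo 16.

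The 3 fibrinogen chains are made in fixed proportion from neighbouring genes on chromosome 3, and differences between the chains were not tested. Fga, the alpha chain, was at 5.40 and 5.48 in homozygous embryos 2 and 16, with embryo 7 left out by the scanner's mark, against 5.90, 4.96 and 6.13 in heterozygous and 5.95 and 6.38 in wild type embryos. Its difference was -0.42 (SE 0.34, adjusted p = 0.502), or -0.64 without embryo 10, -0.80 with marked spots kept (adjusted p = 0.241) and -0.21 under cyclic loess. Fgb was at 9.21, 8.94 and 8.70 in homozygous embryos, against 8.83, 8.50 and 9.23 in heterozygous and 9.20 and 9.19 in wild type embryos. Homozygous and other embryos overlapped, and the difference was -0.04. Fgg, the gamma chain, ranged over 0.40 in all and differed by -0.07, and both signs turned under some settings. Vtn, or vitronectin, an adhesive protein of plasma, was at 9.48, 9.25 and 9.38 in homozygous embryos, against 9.15, 8.98 and 9.48 in heterozygous and 9.30 and 9.15 in wild type embryos, a difference of 0.16 (SE 0.13) that was -0.10 under median scaling. F10, coagulation factor X, differed by 0.07 (SE 0.12). The remaining secreted genes were the iron carrier Trf (-0.17, with -0.30 without embryo 10 and -0.06 without embryo 13), the heme binder Hpx (-0.21, with -0.44 without embryo 16 and -0.08 without embryo 7), the protease inhibitors Serpinf2 (-0.15) and Serpinc1 (-0.14, its spot in embryo 10 missing), and Itih2 (-0.08, and 0.24 without embryo 16), which links hyaluronan. Without embryo 16 Serpinf2 was at -0.02 and Serpinc1 at -0.05. The lowest adjusted p among Trf, Hpx, Serpinf2, Serpinc1 and Itih2 was 0.488.

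**Figure D2:**
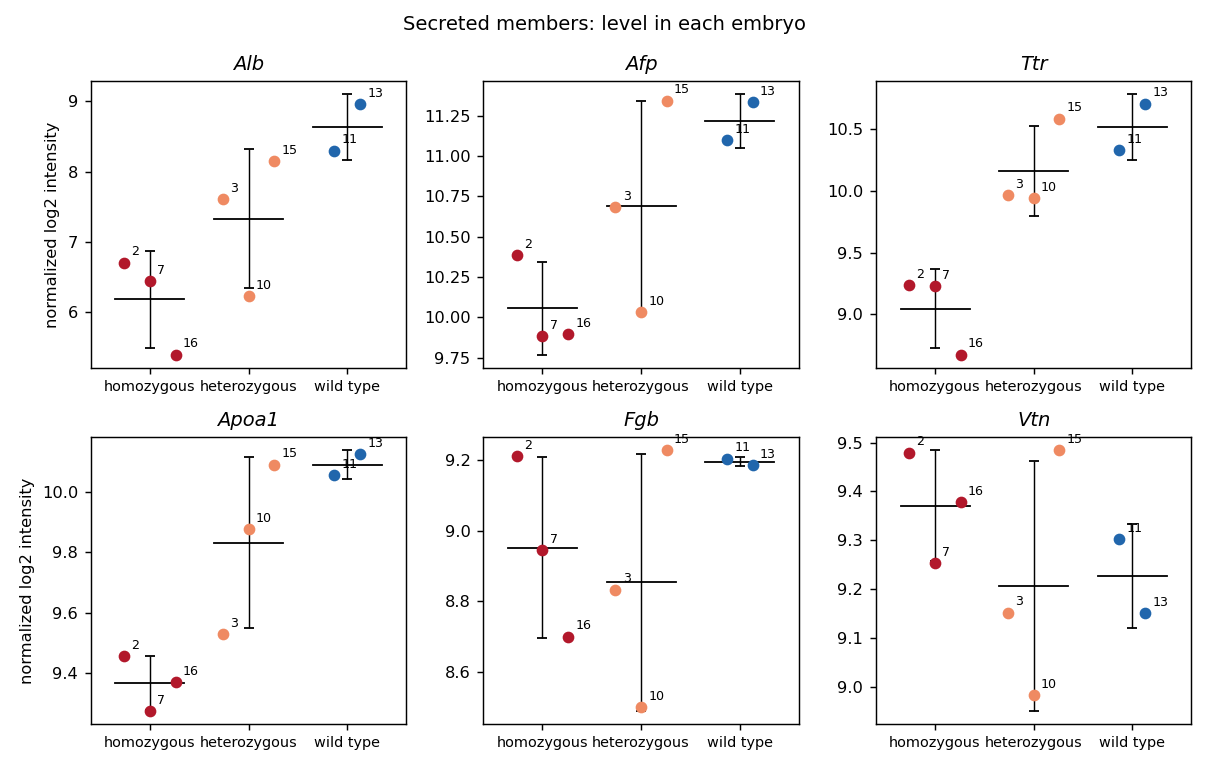
Log2 level of 6 secreted genes in each embryo, homozygous, heterozygous and wild type from left to right, with embryo numbers beside the points. Lines are group means and bars are SD (n = 3, 3 and 2), and each panel has its own scale. For Ttr and Apoa1 the homozygous points lie under all others, for Alb and Afp heterozygous embryo 10 lies among them, and for Fgb and Vtn the groups mix. Of all tested probes with a value in every embryo, 9.51% had every homozygous value below every other value.

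The transcription factors had differences of both signs. Onecut1 (HNF6), a homeodomain factor of liver and bile ducts, was at 5.67, 5.62 and 5.81 in homozygous embryos, against 5.27, 4.99 and 5.0 in heterozygous and 4.62 and 3.88 in wild type embryos. The 3 genotypes did not overlap in that order, but neither wild type array was above background, and Onecut1 was tested through the genotypes where it was high. Of the 7 tested factors, 1 (Onecut1) had every homozygous value above every other value and 0 had every homozygous value below. Over all tested probes with a value in every embryo these shares were 4.71% and 9.51%. The share with such a step across all 3 genotypes was not counted. Against the 5 others the difference was 0.95 (SE 0.28, limma adjusted p = 0.163), and against wild type it was 1.45 (adjusted p = 0.111). With wild type values under the lowest signal above background raised to that signal, homozygous embryos were 2.38-fold higher than wild type. That fold is no strict minimum. With normexp the log2 difference was 0.52 against wild type and 0.37 against the others. Without wild type embryo 13 the difference against wild type was 1.07. Its relative Onecut2 was at 10.15, 9.78 and 9.62 in homozygous embryos, against 9.82, 9.17 and 9.89 in heterozygous and 9.37 and 9.91 in wild type embryos, overlapping throughout (0.21, SE 0.21, and -0.05 under median scaling).

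The 3 FOXA factors, which bind condensed chromatin ahead of other factors, also had differences of both signs. Foxa1 was at 8.02, 8.30 and 8.06 in homozygous embryos, against 8.27, 8.50 and 8.38 in heterozygous and 8.42 and 8.40 in wild type embryos, a difference of -0.27 (SE 0.10, adjusted p = 0.201). Foxa2 was at 6.93, 6.87 and 6.81 in homozygous embryos, against 6.37, 7.11 and 6.48 in heterozygous and 6.62 and 6.32 in wild type embryos, a difference of 0.29 (SE 0.18, adjusted p = 0.371). Heterozygous embryo 10 was the highest of all for Foxa2. Foxa3 was at 4.69, 5.0 and 4.59 in homozygous embryos, against 3.80, 4.65 and 3.30 in heterozygous and 4.19 and 4.01 in wild type embryos. It was above background on the 3 homozygous arrays alone and was tested only through them, so its direction is tied to how it was chosen. With values of the others under the lowest signal above background raised to that signal, the fold over them was 1.23. The log2 difference was 0.77 (limma adjusted p = 0.187), but 0.20 with normexp, and heterozygous embryo 10 exceeded homozygous embryo 16.

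Prox1, needed for hepatoblasts to leave the liver bud, was at 5.40, 5.62 and 4.70 in homozygous embryos, against 5.52, 5.84 and 5.72 in heterozygous and 5.71 and 5.88 in wild type embryos. Its difference of -0.50 (SE 0.20, adjusted p = 0.22) was -0.23 without embryo 16. Cebpa, a driver of hepatocyte maturation, was at 4.57, 4.68 and 3.66 in homozygous embryos, against 4.49, 3.98 and 4.38 in heterozygous and 4.80 and 4.37 in wild type embryos. It too was tested only through the homozygous arrays, and its difference of -0.10 (SE 0.26) turned to 0.24 without embryo 16. Hnf4a ranged from 2.17, the floor, to 4.73, and its change was not measurable here.

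**Figure D3:**
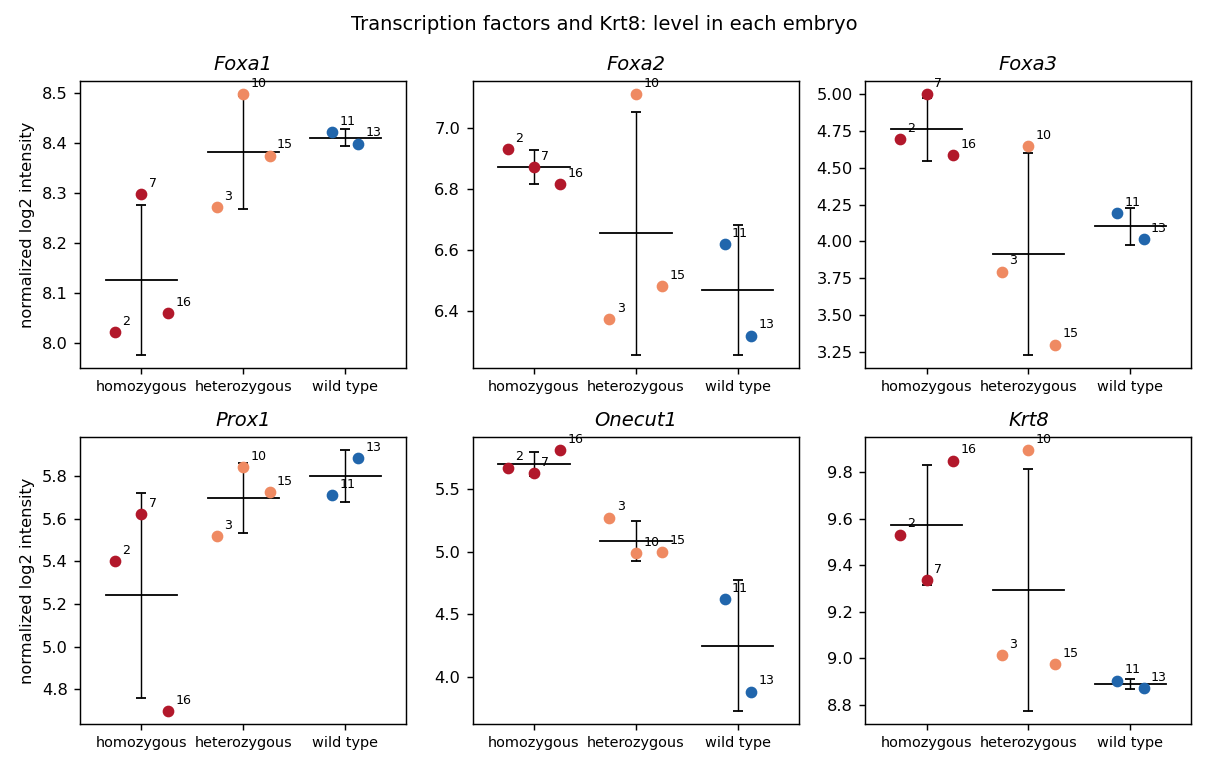
Log2 level of 5 transcription factors and of Krt8 in each embryo, homozygous, heterozygous and wild type from left to right, with embryo numbers beside the points. Lines are group means and bars SD (n = 3, 3 and 2), and each panel has its own scale. Onecut1 steps down without overlap across the 3 genotypes, with neither wild type array above background, and Krt8 in heterozygous embryo 10 lies with the homozygous points. Of all tested probes with a value in every embryo, 4.71% had every homozygous value above every other value.

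Among the intracellular proteins, the keratin pair of simple epithelia had higher means and the other pair lower means, none past the threshold. Krt8 was at 9.53, 9.34 and 9.85 in homozygous embryos, against 9.01, 9.89 and 8.97 in heterozygous and 8.90 and 8.87 in wild type embryos. Heterozygous embryo 10 was the highest, and the difference was 0.44 (SE 0.24, adjusted p = 0.335). Under median scaling the difference was 0.18 for Krt8 and 0.20 for its partner Krt18. Krt18 was at 10.41, 10.45 and 10.90 in homozygous embryos, against 10.05, 10.64 and 9.78 in heterozygous and 10.35 and 9.63 in wild type embryos (0.50, SE 0.24). Tdo2, which starts tryptophan breakdown, was at 4.79, 4.91 and 4.14 in homozygous embryos, against 4.67, 5.97 and 4.89 in heterozygous and 4.95 and 4.91 in wild type embryos (-0.47, SE 0.30, or -0.25 without embryo 10 and -0.24 without embryo 16). Fabp1, the liver fatty acid-binding protein, was at 5.69, 3.65 and 3.51 in homozygous embryos, against 5.30, 4.82 and 5.14 in heterozygous and 5.59 and 5.86 in wild type embryos. Embryo 2 was as high as wild type, and its array was the 1 of 3 homozygous arrays above background. Fabp1 was tested through the heterozygous and wild type arrays, where it was high, so its direction is tied to how it was chosen. The difference was -1.06 (SE 0.48, adjusted p = 0.262), or -1.74 without embryo 2, when no homozygous array was above background.

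**Figure D4:**
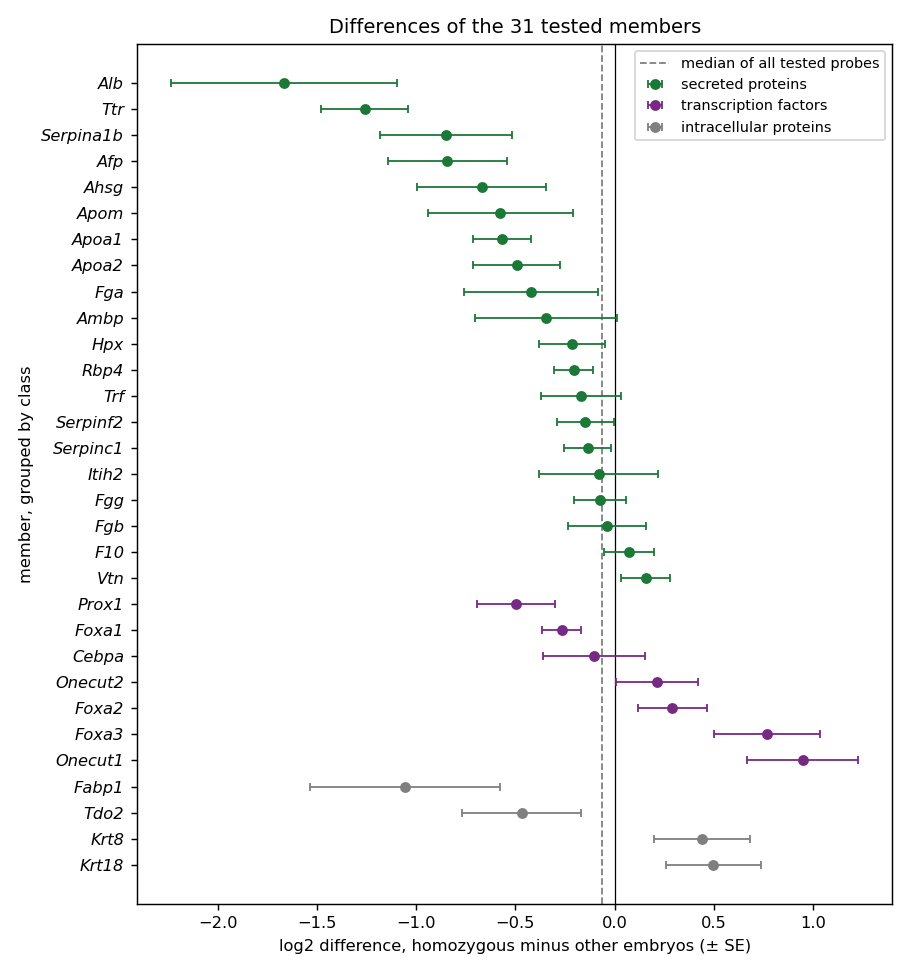
Log2 difference of the 31 tested members between the 3 homozygous and the 5 other embryos, with bars for the SE and the dashed line at the median of all tested probes. Members are grouped by class and ordered within it. The secreted genes run from -1.67 (Alb) to 0.16 (Vtn), and the factors from -0.50 (Prox1) to 0.95 (Onecut1).

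The 2 classes were set side by side by their medians, with no test. Homozygous against the other embryos, the median log2 difference was -0.28 over the 20 secreted genes and -0.06 over all tested probes. With an embryo left out the secreted median ran from -0.43 (without embryo 10) to -0.22 (without embryo 13), and under cyclic loess it was -0.20. Over the 7 factors the median was 0.21, but Foxa3, Cebpa and Onecut1 entered through arrays of the genotypes in which they were detected. Over the 4 factors above background on all 8 arrays the median was -0.03. Of the secreted genes, 18 of 20 had a negative difference, against 60.2% of all tested probes. Against wild type alone the secreted median was -0.56, against -0.07 over all probes, and -0.04 over the 4 factors, and 19 of 20 secreted genes had a negative difference, against 59.9% of all probes. The secreted median against wild type was -0.36 with normexp, -0.72 in the authors' value table and -0.68 to -0.43 with an embryo left out. Here 8 secreted genes and 0 factors were lower at an unadjusted p under 0.05, beside 9.36% of all probes. Higher at that cutoff were 0 secreted genes and 1 factor, beside 5.93%. That factor, Onecut1, was tested through the genotypes where it was high. After adjustment limma called 0 members, beside 0.0342%.

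The heterozygous embryos differed widely among themselves. Heterozygous against wild type, all 20 secreted genes had a negative difference, against 51.5% of all probes, with a median of -0.38. No member passed, beside 0% of all probes, and 1 was lower and 1 higher at an unadjusted p under 0.05, beside 1.04% and 1.26%. The higher one was Onecut1, tested through the genotypes where it was high. Alb differed by -1.30 (SE 0.59), or -0.75 without embryo 10, and Ttr by -0.35, or -0.17 without wild type embryo 13 and -0.56 without embryo 15, both with an adjusted p of 1. Without embryo 10 the secreted median was -0.21. Homozygous against heterozygous, the secreted median was -0.16, against -0.06 over all probes, and no member passed, beside 0.0214%. That median was -0.32 without embryo 10 and -0.02 without embryo 15, which put it 0.05 above the median of all probes. Under median scaling it lay at -0.20, as did all probes. These comparisons share embryos and are not independent. Heterozygous embryo 15 had 0 of 20 secreted genes below their own mean over the embryos, as did wild type embryo 11, while embryos 3 and 10 had 14 of 20 and 16 of 19. In homozygous embryos 2, 7 and 16 the counts were 11 of 20, 14 of 19 and 17 of 20. Over all tested probes that share was highest in embryo 16, at 63.2%, and 41.2% to 53.3% in the others.

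Wider lists place the members in the embryo. Of 44 further secreted liver proteins with a probe, 20 were tested and 0 passed in either direction, with a median difference of -0.17 between homozygous and other embryos. The best-expressed, Apoe, differed by 0.37 (SE 0.15) and Serping1 by -0.17 (SE 0.08), or 0.07 and -0.40 under median scaling. Of 24 further liver factors, 19 were tested and 0 passed, with a median of 0.01, and the highest levels were those of Nr2f2 (0.13, -0.24 under median scaling, and 0.58 for its other probe) and Xbp1 (-0.19). Of 17 hepatocyte enzymes, 12 were tested and 0 passed (median -0.04), with Arg1 at 0.06 (-0.23 under median scaling) and Ass1 at -0.05. Of 10 hepatoblast surface and liver bud genes, 9 were tested and 0 passed, with a median of 0.01. At an unadjusted p under 0.05, 4 of the 9 were lower, beside 13.4% of all probes, and 1 was higher, beside 6.63%. The 4 were Lgr5 (-0.49), Slc2a2 (-0.44), Met (-0.34) and Cldn1 (-0.33). The 1 was Dlk1, a surface protein of hepatoblasts (0.26, and -0.07 under median scaling). Dlk1 was at 11.51, 11.44 and 11.19 in homozygous embryos, against 11.18, 11.09 and 11.08 in heterozygous and 10.99 and 11.23 in wild type embryos. In all, 5 of the 9 had a positive difference. Besides Dlk1 these were Epcam, Cdh1, Asgr1 and Tfr2. Their means were 10.66, 8.08, 7.76 and 6.14 in homozygous embryos, against 10.57, 7.95, 7.47 and 6.13 in the others.

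Other sources of the same transcripts were read in the same way, and no listed gene passed in any comparison. Of 11 yolk sac endoderm genes with a probe, 9 were tested (median -0.17), Amn was at background in every embryo, and the summed intensity of 8 of them was 2092 to 2341 in homozygous, 2338 to 2824 in heterozygous and 2567 to 2629 in wild type embryos. For 7 choroid plexus genes it was 3879 to 4015, 3745 to 4091 and 3906 to 4093 in the same order, with a median difference of -0.06. For 11 erythroid genes it was 8362 to 10350, 8941 to 9229 and 9087 to 9469, with a median of 0.03 over the 12 tested. Of 8 neuronal genes that accompany Onecut expression, all 8 had a negative difference (median -0.25), against 60.2% of all probes, while that of Onecut1 was positive. The 7 genes of floor plate, gut and lung had a median of 0.06, and the 9 epithelial and keratin genes 0.18, with Krt7 at 0.22 (-0.07 under median scaling) and Krt19 at 0.82 (SE 0.31, adjusted p = 0.208, and 0.47 without embryo 16). In that list Krt5 (-0.89), Grhl3 (-0.46) and Krt14 (-0.38) had negative differences. At an unadjusted p under 0.05, 2 of the 9 were lower and 1 higher, beside 13.4% and 6.63% of all probes.

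Macrophage genes were low in several of the same embryos. Of 7 with a probe, 6 were tested, the median difference between homozygous and other embryos was -1.40, and 0 passed. Cd163 alone of the 6 had a positive difference, 0.71, which passed without embryo 7 (1.07). The summed intensity of 5 of them was 289.2, 255.2 and 215 in homozygous embryos 2, 7 and 16, against 645, 193.4 and 888.7 in heterozygous embryos 3, 10 and 15 and 650.7 and 757.3 in wild type embryos. Heterozygous embryo 10, which had low Alb and Afp, was thus the lowest of all, and embryo 3 was high although its secreted genes were mostly below their means. The complement gene C1qc was at 5.83, 6.38 and 4.93 in homozygous embryos, against 7.83, 5.03 and 8.30 in heterozygous and 7.77 and 7.92 in wild type embryos. The part of macrophage content, array brightness or sex in the secreted genes was not tested beyond the Y-linked covariate, with which Alb differed by -1.68 and Ttr by -1.27 between homozygous and other embryos.

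**Figure D5:**
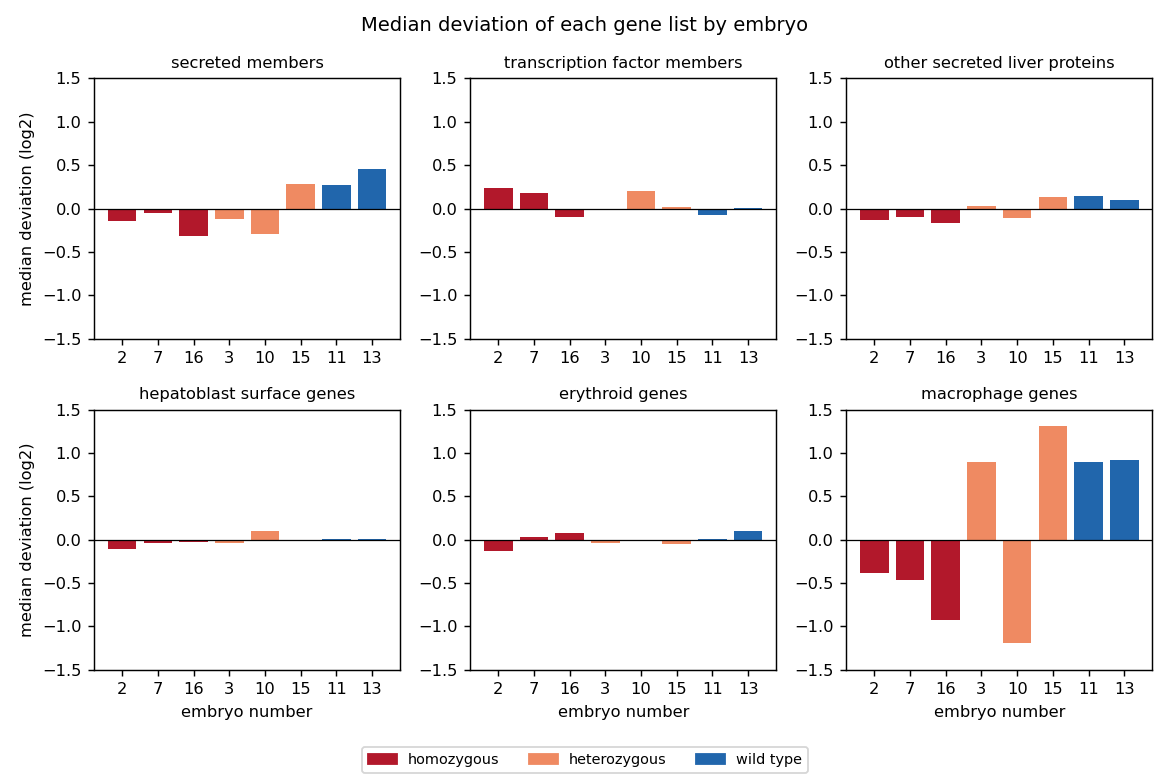
Bars give, for each embryo, the median over a gene list of the log2 level minus the mean of that gene in all embryos, with homozygous embryos at the left, then heterozygous and wild type. Secreted members are negative in embryos 2, 7, 16, 3 and 10 and positive in 15, 11 and 13, macrophage genes share those signs except in embryo 3, and hepatoblast surface and erythroid genes show both signs, at -0.11 and -0.13 in embryo 2.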

How the data were processed

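The deposited array files hold an intensity per spot that, per the file headers, is the spot mean less the local background median. The scanner software and a genome build are not stated there. The authors' value table holds the same intensities divided by 1 factor per array. From the intensities, spots marked in the files as masked, irregular or contaminated were left out, and the 8 arrays were quantile normalized (limma 3.58.1, R 4.3.3). Values were raised to a floor at the 5th percentile of positive values (2.17 after log2). The 23389 probes tested had to exceed background on every array of 1 genotype or more. lmFit and eBayes were fitted over all 8 embryos, as 3 genotype means or as homozygous against the 5 others, two-sided, with Benjamini-Hochberg adjustment over all tested probes and a threshold of 0.05. The fit was tested on simulated data with differences larger than those of the members against the 5 others. That test does not bear on differences of the members' size.

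The members and the wider lists were chosen with earlier results of these data known. Every member with a probe is named, the probe with the highest mean stands for a gene, and of the wider lists up to 4 with the highest mean level are named. Amn, Cd163, Lgr5, Slc2a2, Cldn1, Asgr1, Tfr2, Krt5, Krt14 and Grhl3 were singled out after their values were seen. Replicates are separate embryos. Where a group was not above background on any array, its values under the lowest signal above background on an array were raised to that signal for the fold. Such a fold holds for this processing only and is no strict minimum. Gene names, neighbours, coordinates and promoters are from RefSeq on GRCm38.p6. The number of arrays limits the precision. The alternatives were other scalings, background correction, floors, filters, weights, priors, a Y-linked covariate and each embryo left out.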

Additional observations from a re-analysis of the deposited data

Results flagged for a closer look

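In 3 of the 31 tested members, heterozygous embryo 10 lay far from the other 4 wild type and heterozygous embryos, with a gap to its nearest neighbour that was a large share of the whole range. Such a gap arises by chance in about 1 in 20 groups. Itih2 was at 5.93 in embryo 10, against 6.65 to 6.92 in the other 4. Tdo2 was at 5.97, against 4.67 to 4.95. Krt8 was at 9.89, against 8.87 to 9.01.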

How the results depend on the processing

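No paired analysis was possible because the embryo numbers are not shared between genotypes. Over the 22 alternatives (21 against the 5 others) the secreted median stayed negative in every comparison. In the comparisons of homozygous embryos the median of all probes was also negative throughout. Less that median, the secreted median ran from -0.258 to 0.046 against heterozygous embryos and stayed negative in the other comparisons. No member of the set was called when an embryo was left out. Members called against the other embryos numbered 1 (Ttr) in the authors' value table, with normexp and with the trended robust prior, and 2 (Ttr, Onecut1) against wild type with array weights, where Onecut1 was not above background in wild type embryos. The factor median, homozygous against wild type, was -0.095 under median scaling, -0.13 in the value table, -0.038 with no filter or with probes above background on all 8 arrays, and -0.064 to 0.324 with an embryo left out. Homozygous against the others it was 0.034, 0.00045, 0.056 and -0.026 under those settings and 0.066 to 0.331 with an embryo left out. It was 0.213 with the Y-linked covariate for heterozygous against wild type. Homozygous against heterozygous it was -0.019 with probes on all arrays and -0.0078 to 0.336 with an embryo left out. Probes called, homozygous against wild type, numbered 27 under median scaling and in the value table, 20 under cyclic loess, 36 with normexp, 5 with a floor at the 1st percentile or marked spots kept, 4 with no filter, 186 with array weights, 48 with the trended prior, 13 with the covariate, 0 in a fit of only those groups and 0 to 42 with an embryo left out. Against the others they numbered 42 (cyclic loess), 45 (value table), 85 (normexp), 6 (no filter), 50 (all arrays), 99 (weights), 118 (trended prior), 57 (covariate) and 5 to 314 with an embryo left out, 314 without embryo 7. Heterozygous against wild type they numbered 2 under median scaling and in the value table, 1 under cyclic loess, weights and the trended prior, and 0 to 3 with an embryo left out. Homozygous against heterozygous they numbered 10, 9, 12, 11 and 16 (median scaling, cyclic loess, value table, normexp, trended prior) and 4 to 58 with an embryo left out. Lower calls made up 18 of 25 against the others as reported, 22 of 42 under cyclic loess and 41 of 85 with normexp. Against wild type they were 6 of 8, 9 of 20 and 16 of 36, and against heterozygous embryos 5 of 5, 6 of 9 and 8 of 11, with 7 of 10 under median scaling and 8 of 12 in the value table. The median of all probes lay at -0.25 in the value table, against -0.06. Signs turned for 8 members: Vtn (-0.096 and -0.13 under median scaling and in the value table), Onecut2 (-0.051 and -0.084 there), F10 (-0.0024, value table), Cebpa (0.034, 0.00045, 0.084 under cyclic loess, 0.092 with weights, and -0.291 to 0.237 with an embryo left out), Fgg (0.012 under cyclic loess, -0.209 to 0.0022 left out), Fgb (0.01 with weights, -0.169 to 0.088 left out), Ambp (-0.621 to 0.019 left out) and Itih2 (0.067 under cyclic loess, 0.096 with weights, -0.352 to 0.239 left out). They also turned for Dlk1 (-0.069 and -0.103 under median scaling and in the value table), Nr2f2 (-0.237 and -0.271 there), Arg1 (-0.23 and -0.264 there, -0.0447 to 0.178 left out), Krt7 (-0.068 and -0.102 there), Xbp1 (0.016 with weights, -0.377 to 0.082 left out) and Ass1 (-0.135 to 0.0075 left out). Cd163 alone of the listed genes named here was called with an embryo left out (1.07 without embryo 7). The cause was not tested. Members near background, Foxa3, Cebpa, Onecut1 and Fabp1 among them, are limited by signal.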
